A study of Mus musculus with 8 samples.

Results

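The interferon regulatory factors are transcription factors that share a DNA-binding domain with a conserved cluster of tryptophan residues. They were chosen by name as Irf1, Irf2, Irf3, Irf4, Irf5, Irf7, Irf8 and Irf9, and all 8 were found among the 19330 genes of the count table. RNA-seq was done on Tregs (regulatory T cells) differentiated in culture, starting from naive CD4+ splenic T cells of B6 mice. The oxPAPC group held 4 libraries of cells polarized toward Tregs for 3 days in the presence of oxPAPC, a mixture of oxidized phospholipids. The Control group held 4 libraries of cells polarized in the same way without it. Whether replicates are separate mice or separate cultures is not stated in the labels, and p-values therefore reflect only library-to-library spread, which may be technical.

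IRF proteins bind DNA elements built from GAAA repeats, such as the interferon-stimulated response element (ISRE). IRF3 and IRF7 switch on interferon genes when phosphorylated downstream of nucleic acid sensors, and IRF5 acts downstream of Toll-like receptors. IRF9 is the DNA-binding part of the STAT-containing complex ISGF3, which carries the type I interferon signal to ISREs. IRF1 is induced by interferon gamma and activates genes of antigen presentation, and IRF2 binds the same elements and can oppose it. IRF4 is induced by the T cell receptor and binds with BATF and JUN proteins in T cells, where effector Tregs depend on it. IRF8 is best known from B cells and myeloid cells, and is also made by activated T cells.

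The libraries held between 14017583 and 21619731 counts, and 16434 genes were tested. The mean correlation of a library with the others of its group was between 0.974 and 0.982, over log2 CPM of all tested genes. TMM factors ran from 0.957 to 1.10 in oxPAPC libraries and from 0.808 (replicate 2) to 1.13 (replicate 3) in Control libraries. With 1 library left out, 710 to 1057 genes were called higher, against 1110 with all libraries. Genes called lower then numbered 680 to 1144, against 1072. Both lowest values were those without Control replicate 2. The cells had the marker genes of their label. Foxp3, the lineage factor of Tregs, had a mean of 145 CPM (counts scaled by TMM to a common library size, per 1e6) in oxPAPC libraries and 154 CPM in Control libraries. Cd4 had 363 CPM in oxPAPC and 469 CPM in Control libraries. Each library is bulk RNA, so more cells with a transcript and more transcript per cell cannot be told apart. Libraries had 525 to 1282 counts of Irf3, 49 to 552 of Irf7 and 3466 to 10551 of Irf8.

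Promoter sequences are shown for the 3 genes whose window held a searched element, and for Irf7, the gene with the largest fold change of the 8. The windows run from 250 bases before to 50 bases after an annotated start and were taken from RefSeq (build GRCm38.p6). They matched all 8 genes, with 11 windows in all. Capitals mark matches to GAAA-NN-GAAA (N is any base), the core of an ISRE, searched on both strands, and to TTCNNNGAA, the palindromic STAT element known as GAS. The windows are chr11:53769764-53770063 for Irf1, chr8:46739495-46739794 for Irf2 and chr8:120736108-120736407 for Irf8, all on the plus strand, and chr7:141266375-141266674 on the minus strand for Irf7.
Irf1: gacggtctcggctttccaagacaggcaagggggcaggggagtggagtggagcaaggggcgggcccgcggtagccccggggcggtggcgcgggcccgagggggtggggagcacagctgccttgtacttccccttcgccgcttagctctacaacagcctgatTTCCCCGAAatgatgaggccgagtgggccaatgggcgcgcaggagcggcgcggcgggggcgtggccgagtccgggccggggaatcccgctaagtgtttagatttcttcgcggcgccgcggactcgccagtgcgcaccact
Irf2: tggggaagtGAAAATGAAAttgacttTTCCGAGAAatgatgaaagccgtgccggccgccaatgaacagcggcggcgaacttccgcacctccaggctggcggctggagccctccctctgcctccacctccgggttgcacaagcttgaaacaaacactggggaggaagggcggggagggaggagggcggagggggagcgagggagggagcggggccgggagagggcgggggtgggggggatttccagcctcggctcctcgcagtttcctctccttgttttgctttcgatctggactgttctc
Irf8: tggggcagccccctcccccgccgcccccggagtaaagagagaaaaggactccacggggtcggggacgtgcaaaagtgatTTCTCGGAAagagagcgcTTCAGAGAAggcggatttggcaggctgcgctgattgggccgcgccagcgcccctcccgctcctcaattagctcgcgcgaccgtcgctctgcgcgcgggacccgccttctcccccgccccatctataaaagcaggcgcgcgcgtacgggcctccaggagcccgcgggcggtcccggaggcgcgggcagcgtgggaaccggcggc
Irf7: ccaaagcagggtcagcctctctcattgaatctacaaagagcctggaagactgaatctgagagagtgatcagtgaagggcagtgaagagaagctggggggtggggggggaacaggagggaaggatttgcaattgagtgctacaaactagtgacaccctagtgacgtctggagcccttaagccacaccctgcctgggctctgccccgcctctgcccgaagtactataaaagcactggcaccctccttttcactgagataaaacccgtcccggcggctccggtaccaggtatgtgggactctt

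The Irf1 window held 1 GAS match that starts 90 bases before the start site (TTCCCCGAA, chr11:53769924-53769932). The first Irf8 window held 2 GAS matches, TTCTCGGAA and TTCAGAGAA, which start 171 and 153 bases before the start site. The Irf2 window held an ISRE core match, GAAAATGAAA, 241 bases before the start site, and a GAS match, TTCCGAGAA, at 224 bases. None of these matches overlapped another. The windows of the other 5 genes, Irf7 among them, and the second windows of Irf1 and Irf8, held neither string. Of all 32851 promoter windows of this length, 3.44% held the ISRE core and 8.30% the GAS string. A match is a description of these letters and does not show that a factor bound there.

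Most interferon regulatory factor genes had more RNA in the oxPAPC libraries. With edgeR (quasi-likelihood, p adjusted by Benjamini-Hochberg over all tested genes, threshold 0.05), 5 of the 8 rose (Irf1, Irf4, Irf5, Irf7 and Irf9), 1 fell (Irf2) and 2 did not pass (Irf3 and Irf8). Of all tested genes, 13.3% passed in either direction, 6.75% higher and 6.52% lower in oxPAPC libraries. The median log2 fold change was 0.59 for the 8 genes and -0.01 for all tested genes. In CPM, the oxPAPC libraries lay wholly above the Control libraries for 5 genes and wholly below for 1, against 9.50% and 9.86% of all tested genes. Irf3 is among those 5 and Irf5 is not. The genes whose position is not given with their values are at chr8:46739732-46847458 (Irf2), chr7:44997648-45002848 (Irf3), chr6:29526625-29541871 (Irf5), chr8:120736358-120756694 (Irf8) and chr14:55603571-55610030 (Irf9), all on the plus strand of GRCm38.

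**Figure D1:**
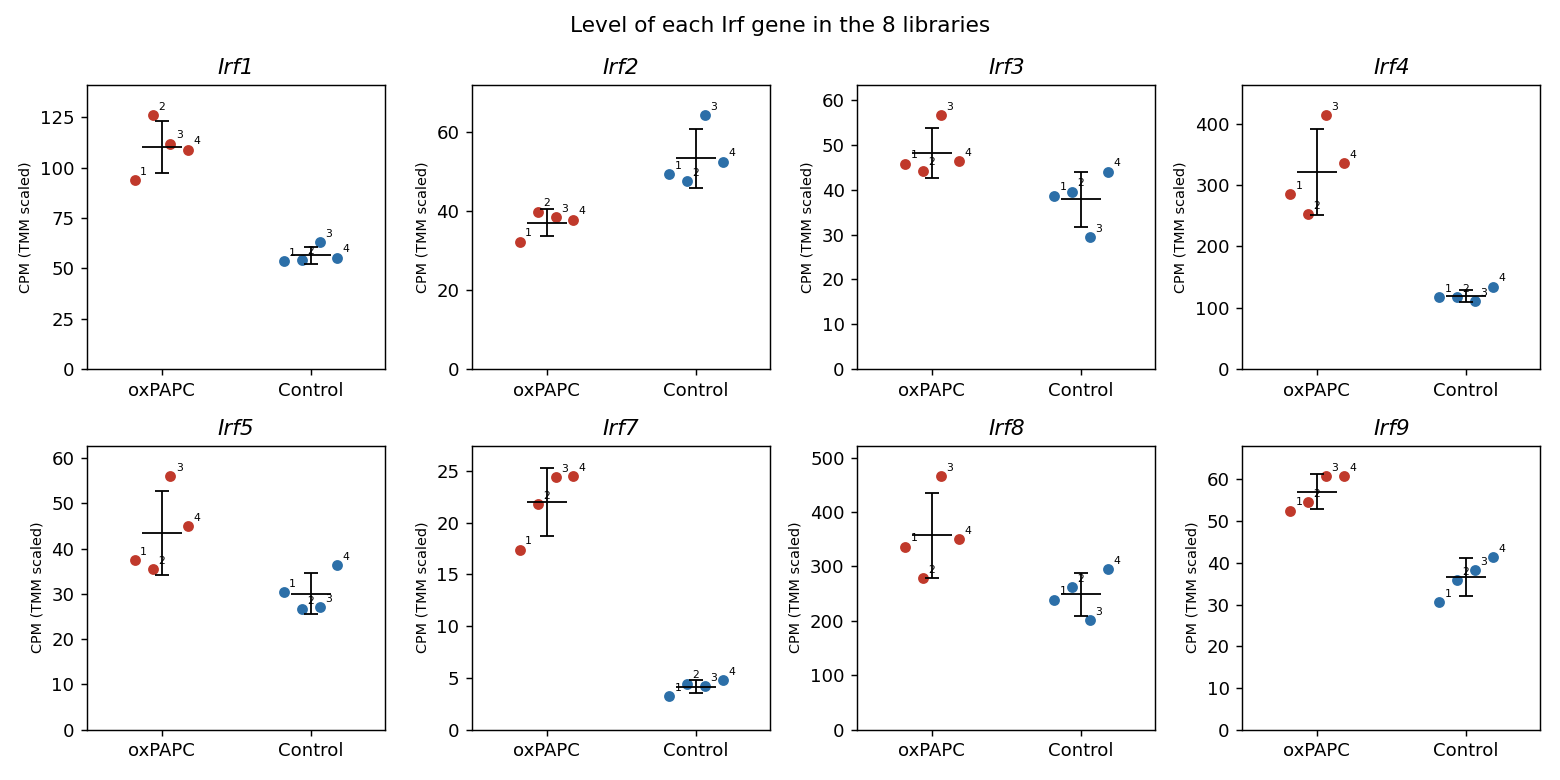
Level of each Irf gene in CPM, linear axis from 0, in the 4 oxPAPC libraries (red) and the 4 Control libraries (blue), with replicate numbers, group means and SD. Irf7 had 17.4 to 24.5 CPM in oxPAPC libraries and 3.26 to 4.78 CPM in Control libraries, while the groups overlap for Irf5 and Irf8.

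Irf7, which amplifies interferon production once interferon has been sensed, had the largest change of the family. It had 17.4, 21.8, 24.4 and 24.5 CPM in oxPAPC replicates 1 to 4, against 3.26, 4.45, 4.20 and 4.78 CPM in Control replicates 1 to 4. The lowest oxPAPC library lay well above the highest Control library. The log2 fold change was 2.39 ± 0.18 (SE, edgeR adjusted p = 4.39e-06), a 5.26-fold difference. The gene is at chr7:141262706-141266481 (GRCm38, minus strand), and it shares 45 exon bases with Phrf1, which had a log2 fold change of 0.29 (edgeR adjusted p = 0.316).

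Irf3, its constitutively made relative, is activated mainly by phosphorylation. It had 45.8, 44.2, 56.6 and 46.4 CPM in oxPAPC replicates 1 to 4 and 38.7, 39.6, 29.4 and 44.0 CPM in Control replicates 1 to 4. The groups only just did not overlap, with the highest Control library at 44.0 and the lowest oxPAPC library at 44.2 CPM. Irf3 did not pass (log2 fold change 0.35 ± 0.15 SE, edgeR adjusted p = 0.145). Irf3 shares 88 exon bases with Bcl2l12 on the opposite strand, which had a log2 fold change of 0.29 (edgeR adjusted p = 0.349).

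Irf5, which drives inflammatory cytokine genes in myeloid cells, had 37.4, 35.5, 56.0 and 44.9 CPM in oxPAPC replicates 1 to 4. It had 30.3, 26.6, 27.0 and 36.3 CPM in Control replicates 1 to 4. Control replicate 4 lay above oxPAPC replicate 2, so the groups overlap. Irf5 shares 411 exon bases with Tnpo3 on the opposite strand, which had a log2 fold change of 0.27 (edgeR adjusted p = 0.187). Irf5 passed narrowly, at an edgeR adjusted p of 0.0489 (log2 fold change 0.53, SE 0.17). The call was lost without oxPAPC replicate 1, 3 or 4 or Control replicate 1, 2 or 3 (adjusted p of 0.0565 to 0.134), with library size scaling (0.0547), without a filter (0.0541), with limma-voom (0.0577) and with a replicate block (0.0870).

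Irf9, the DNA-binding subunit of ISGF3, had 52.5, 54.5, 60.8 and 60.8 CPM in oxPAPC replicates 1 to 4. It had 30.6, 35.9, 38.2 and 41.4 CPM in Control replicates 1 to 4, all below every oxPAPC library. Irf9 rose 1.56-fold (log2 fold change 0.64, SE 0.13, edgeR adjusted p = 0.00631). Stat2, which binds IRF9 in that complex, rose (log2 fold change 0.50, SE 0.15, edgeR adjusted p = 0.0347), a call lost with library size scaling (0.0519) and a replicate block (0.0520), and without oxPAPC replicate 3 or 4 or Control replicate 1, 2 or 3 (0.0578 to 0.113). Among 7 listed STAT genes, 2 passed upward and none downward (median log2 fold change -0.05). Of all tested genes, 6.75% were higher and 6.52% lower. Irf9 shares 123 exon bases with its same-strand neighbour Rnf31, which had a log2 fold change of -0.09 (edgeR adjusted p = 0.804).

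Irf1 and Irf2, the activator and its relative that can oppose it, moved in opposite directions. Irf1 had 93.9, 126, 112 and 109 CPM in oxPAPC replicates 1 to 4, against 53.6, 54.3, 62.9 and 55.3 CPM in Control replicates 1 to 4. The groups stood well apart, and Irf1 rose 1.95-fold (log2 fold change 0.96, SE 0.14, edgeR adjusted p = 0.000539). Irf2 had 32.2, 39.7, 38.4 and 37.7 CPM in oxPAPC replicates 1 to 4, against 49.2, 47.5, 64.1 and 52.4 CPM in Control replicates 1 to 4. Every oxPAPC library lay below every Control library, and Irf2 was 30.6% lower (log2 fold change -0.53, SE 0.14, edgeR adjusted p = 0.0218). This call was lost without oxPAPC replicate 1 (adjusted p = 0.0782), without oxPAPC replicate 4 (0.0565) and with library size scaling (0.245), under which the median of all genes moved to 0.12. Irf1, at chr11:53770014-53778374, shares 135 exon bases with Gm17334 on the opposite strand, which had 40.6 ± 8.81 CPM in oxPAPC and 22.1 ± 2.41 CPM in Control libraries (SD, n = 4 each). Gm17334 had a log2 fold change of 0.87 (edgeR adjusted p = 0.00322). The sources used here do not say whether counting used strand, so reads of Irf1 and Gm17334 in the shared stretch cannot be told apart. The same limit holds for the opposite-strand pairs Irf3 and Bcl2l12, Irf5 and Tnpo3, and Irf7 and Phrf1.

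Irf4, the T cell receptor-induced factor, had 285, 253, 414 and 336 CPM in oxPAPC replicates 1 to 4. It had 117, 117, 110.4 and 134 CPM in Control replicates 1 to 4. The lowest oxPAPC library, at 253 CPM, lay far above the highest Control library. Irf4, at chr13:30749226-30766976, rose by 1.43 in log2 units (SE 0.18, edgeR adjusted p = 0.000189).

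Irf8, the closest relative of Irf4, had the most counts of the family. It had 336, 278, 466 and 349.6 CPM in oxPAPC replicates 1 to 4 and 239, 262, 201 and 295 CPM in Control replicates 1 to 4. Control replicate 4 lay above oxPAPC replicate 2, so the groups overlap. Irf8 did not pass (log2 fold change 0.52 ± 0.19 SE, edgeR adjusted p = 0.0870). It passed with DESeq2 (adjusted p = 0.0358) and when genes under a mean of 5 CPM were removed (0.0486), and in the authors' deposited table (0.0442), in which 14.4% of genes with a p passed. The authors' deposited table also has Irf5 past the threshold (0.0358), and gives Irf3 an adjusted p of 0.157.

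**Figure D2:**
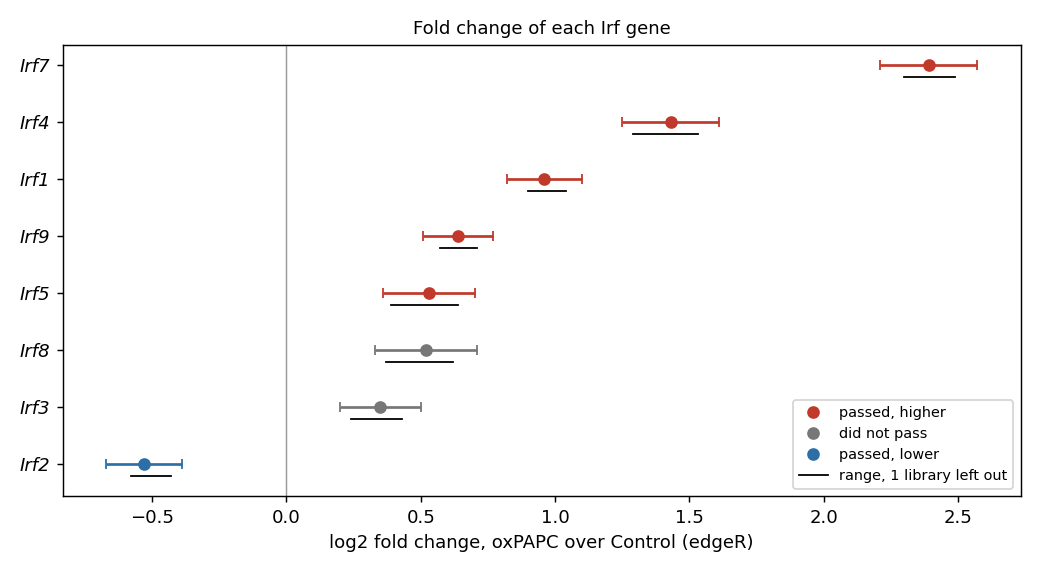
Log2 fold change of oxPAPC over Control by edgeR for each Irf gene, as points with bars of 1 SE, coloured by call, above thin black lines for the range when 1 library is left out. Irf7 is at 2.39, Irf4 at 1.43 and Irf1 at 0.96, Irf2 is at -0.53, and Irf8 and Irf3 did not pass.

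Levels of different genes were set side by side per kilobase of merged exon length. On this scale Irf4 was highest in oxPAPC libraries, with a mean of 65.7 ± 14.3 CPM per kilobase, followed by Irf8 with 50.7 ± 11.1 and Irf1 with 27.8 ± 3.28 (SD, n = 4 each). Irf5, Irf3 and Irf9 followed, with Irf5 at 15.0 and Irf9 at 10.6 CPM per kilobase, then Irf7 at 5.83, and Irf2 was last at 4.35 to 5.37. In Control libraries Irf8 was highest with 35.3 ± 5.59 CPM per kilobase, followed by Irf4 with 24.4 ± 2.11 and Irf1 with 14.2 ± 1.08 (SD, n = 4 each). Irf3 followed at 8.54 to 12.8 CPM per kilobase, then Irf5, Irf2 and Irf9 with 10.3, 7.21 and 6.79, and Irf7 was last with 1.11. Among neighbours in this order, the ranges of Irf4 and Irf8, of Irf5 and Irf3 and of Irf7 and Irf2 overlapped in oxPAPC libraries. In Control libraries those of Irf3 and Irf5 and of Irf2 and Irf9 did.

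The order depends on the length used. With the longest protein coding transcript as length, a choice made after seeing the data, Irf8 was highest in both groups, with a mean of 126 CPM per kilobase in oxPAPC and 87.6 in Control libraries. Irf4 then had 67.6 CPM per kilobase in oxPAPC and 25.1 in Control libraries. Irf7 was last in both groups on that scale, with 9.84 in oxPAPC and 1.87 in Control libraries. Irf4 and Irf8 together made up 53.9% to 63.4% of the summed level of the 8 genes in oxPAPC and 50.3% to 55.6% in Control libraries by merged exon length. The share of Irf4 alone was 30.6% to 35.6% in oxPAPC libraries and 21.7% to 22.5% in Control libraries on the same scale. The share of Irf2 was 2.19% to 3.18% in oxPAPC and 5.69% to 8.53% in Control libraries.

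Ratios between relatives within a library do not depend on scaling between libraries, and 3 pairs were computed. The ratio of Irf7 to Irf3 was 0.346, 0.449, 0.392 and 0.482 in oxPAPC replicates 1 to 4 and 0.0767, 0.102, 0.130 and 0.0992 in Control replicates 1 to 4. Irf7 thus stayed below Irf3 in every library while the ratio of group means was 4.08. The ratio of Irf1 to Irf2 was 5.43, 5.88, 5.44 and 5.41 in oxPAPC replicates 1 to 4 and 2.03, 2.13, 1.83 and 1.96 in Control replicates 1 to 4. This ratio was the most even within groups of the 3, with a mean of 5.54 ± 0.229 in oxPAPC and 1.99 ± 0.126 in Control libraries (SD, n = 4 each). The ratio of Irf4 to Irf8 was 1.22, 1.31, 1.28 and 1.38 in oxPAPC replicates 1 to 4 and 0.703, 0.641, 0.788 and 0.654 in Control replicates 1 to 4. No ratio overlapped between the groups. Which of Irf4 and Irf8 is higher in oxPAPC libraries turns with the length used, since the mean ratio is 0.539 with the longest coding transcript. The ratio of group means is 1.86 with either length by arithmetic alone, since the lengths cancel. These ratios are descriptions and were not tested.

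**Figure D3:**
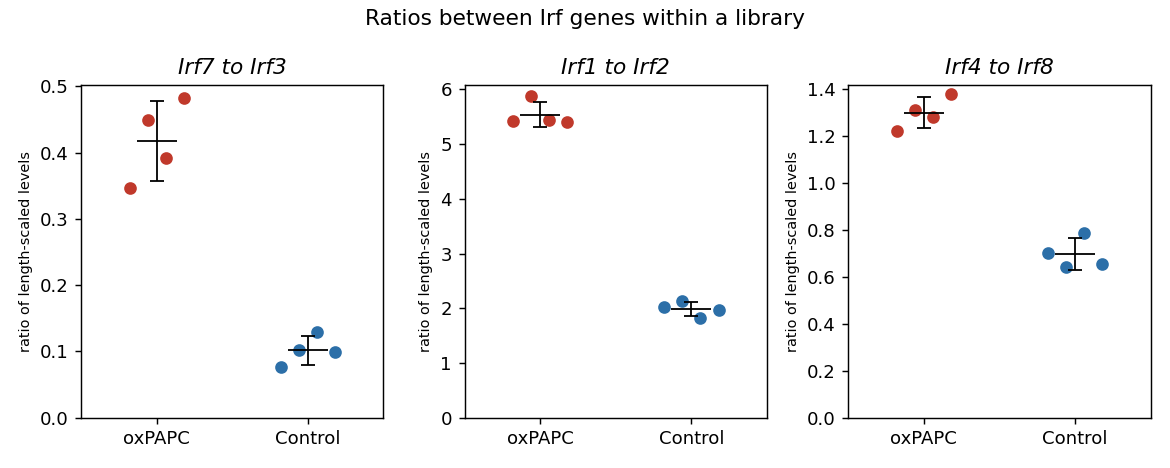
Ratio of length-scaled levels (merged exon length) within each library for Irf7 to Irf3, Irf1 to Irf2 and Irf4 to Irf8, with oxPAPC libraries in red, Control libraries in blue, group means and SD. All 4 oxPAPC libraries lie above all 4 Control libraries in each panel, for instance at 5.41 to 5.88 against 1.83 to 2.13 for Irf1 to Irf2.

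Within the groups the members did not all vary together. In the oxPAPC group, replicate 3 had the highest level of Irf3, Irf4, Irf5 and Irf8, with log2 CPM above the group mean by 0.24, 0.39, 0.39 and 0.41. Replicate 2 had the lowest level of the same 4 genes. Irf1 and Irf2 had another order, with oxPAPC replicate 2 highest and oxPAPC replicate 1 lowest for both. In the Control group, replicate 3 was highest for Irf1 and Irf2 and lowest for Irf3, Irf4 and Irf8. Irf7 and Irf9 were lowest in replicate 1 of each group and highest in Control replicate 4. Without oxPAPC replicate 3 the log2 fold changes of Irf4 and Irf8 were 1.29 and 0.37, the lowest of those with 1 library left out.

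**Figure D4:**
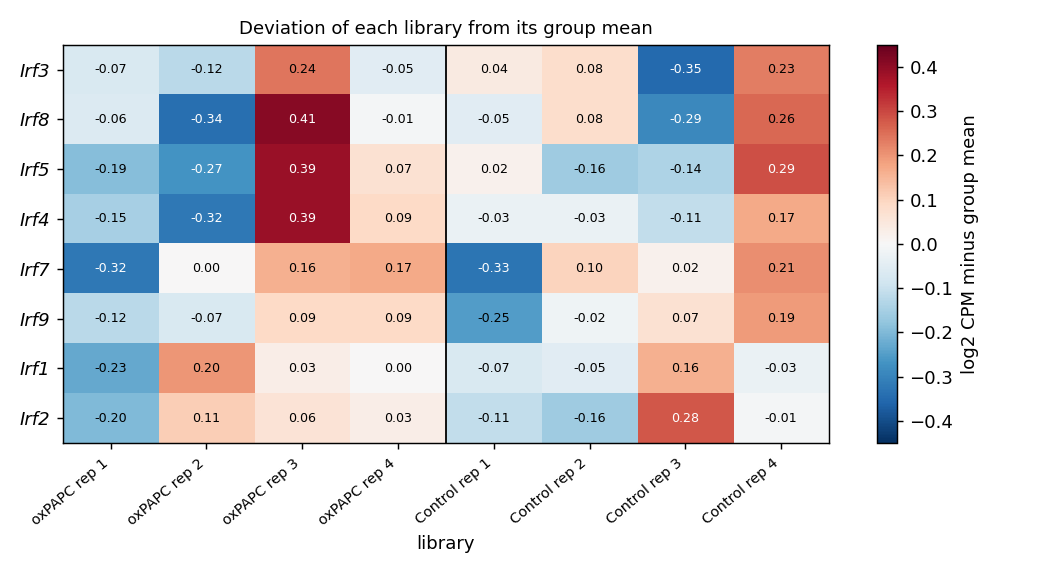
Log2 CPM of each Irf gene (rows) minus the mean of its group, for the 4 oxPAPC and 4 Control libraries (columns, separated by a line), with the values printed and coloured from blue (below) to red (above). Irf3, Irf4, Irf5 and Irf8 are all highest in oxPAPC replicate 3, while Irf1 and Irf2 are highest in oxPAPC replicate 2 and Control replicate 3.

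The genes most like each changed member were sought among 10278 genes with a mean of at least 5 CPM, by Pearson correlation of log2 CPM over the 8 libraries. Because the groups differ, any gene that changed strongly in the same direction scores high, so these values are descriptions only. Those reported for Irf7 are Mreg (0.990) and Parp14 (0.987). For Irf4 they were Scin (0.997), Calr (0.996) and Cd82 (0.994). Those reported for Irf1 are Gramd1b (0.985) and Nrf1 (0.980). The closest genes of Irf9 were Gabpb2, Chd1l and Dna2, those of Irf5 were Eif5a, G3bp1 and Cpped1, and those of Irf2 were Inpp5f, Lrrc28 and Rapgef6, with values of 0.984 to 0.991. The closest of 10278 genes over 8 libraries can also score high by selection alone, so the values that follow are descriptions too. When only deviations from the group means were compared over the 8 libraries, the closest genes were other ones. They were Nsun2 (0.997), Elovl1 (0.995) and Mthfd1 (0.992) for Irf4, and Dcaf8 (0.988), Cdc25c (0.986) and Tada2b (0.971) for Irf7. For Irf5 they were Plin3, Lrpprc and Bcl7c, for Irf1 Stambpl1, Prkca and H2-T10, for Irf2 Lca5, Zzz3 and Itgae, and for Irf9 Slco4a1, Akap12 and Dnajc7, with values of 0.957 to 0.997.

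The pathway upstream of the factors was read from chosen lists. Each count is set against the 6.75% of all tested genes that were higher and the 6.52% that were lower. The lists were chosen with earlier results of these data known, so the counts are descriptions only. Among interferon ligands only Ifng, Ifnk and Ifnz were tested. The other 17 listed genes, Ifnb1 among them, were not among the genes of the count table. Ifng, the ligand that induces Irf1, had 55.1 to 92.3 CPM in oxPAPC libraries and 1.13 to 4.05 CPM in Control libraries. Ifnk and Ifnz did not pass, with log2 fold changes of 0.23 and -0.29. Of 9 interferon receptor and Janus kinase genes 3 fell and none rose, with a median log2 fold change of -0.27. The fall was in receptor chains, Ifngr2 (log2 fold change -0.67, edgeR adjusted p = 0.00790), Ifngr1 (-0.46, 0.0287) and Ifnar2 (-0.62, 0.0291). The call of Ifngr1 was lost without oxPAPC replicate 1, 2 or 4 or Control replicate 2 or 4 (0.0744 to 0.0896), and that of Ifnar2 without oxPAPC replicate 2 or 4 or Control replicate 1, 2 or 4 (0.0586 to 0.103). With library size scaling none of the 3 passed, and with the replicate block 1 did.

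Of 12 tested nucleic acid sensors, some of which start the signal to IRF3 and IRF7, 6 rose and none fell (median log2 fold change 0.63). Zbp1 had a mean of 30.5 CPM in oxPAPC and 10.8 CPM in Control libraries, and Ifih1, which encodes the RNA sensor MDA5, had 12.8 CPM in oxPAPC and 6.20 CPM in Control libraries. Eif2ak2, the RNA-activated kinase PKR, and Cgas, the DNA sensor, had log2 fold changes of 1.35 and 0.89. Of 19 tested adaptors and kinases between the sensors and IRF3, IRF5 and IRF7, 3 rose and none fell (median 0.19). Tmem173, which encodes STING, had 88.9 CPM in oxPAPC and 46.6 CPM in Control libraries (edgeR adjusted p = 0.00250), and Tbkbp1, a TBK1-binding protein, had 5.97 CPM in oxPAPC and 2.12 CPM in Control libraries. Tirap was the other, at an adjusted p of 0.0455 that was lost without any 1 of the 8 libraries (0.0539 to 0.117). Tbk1 and Ikbke, the kinases that phosphorylate IRF3 and IRF7, did not pass, with log2 fold changes of 0.18 and -0.04.

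Among regulators of IRF proteins 3 of 20 rose and 2 fell (median 0.08). Usp18, which damps type I interferon signalling, and Trim21, a ubiquitin ligase that targets IRF proteins, were among those that rose, with log2 fold changes of 1.68 and 0.94. Foxo3, a forkhead transcription factor, was among those that fell, with a log2 fold change of -0.70. Only 1 gene of the list was lower without oxPAPC replicate 1 or 4, without Control replicate 2, and with library size scaling.

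Partner and target genes were counted in the same way. Of 18 tested AP-1, ETS and Ikaros partners of IRF4 and IRF8, 3 rose and 1 fell (median 0.03). Batf, which binds DNA beside IRF4, had 24.5, 20.8, 25.7 and 28.4 CPM in oxPAPC replicates 1 to 4 and 14.2, 11.5, 13.0 and 13.4 CPM in Control replicates 1 to 4. Jun had a log2 fold change of 0.85 and Bcl6, a repressor of T helper and B cell fate, of -1.18, from levels too low to be tested with the filter at a mean of 5 CPM. Junb, at 0.65 (edgeR adjusted p = 0.0458), passed with all libraries but only without oxPAPC replicate 2 when 1 was left out (0.0559 to 0.107 for the other 7). Of 20 tested genes listed as IRF4 targets in T cells, 9 rose and none fell (median 0.45), with Il9, Il10 and Tigit at log2 fold changes of 2.36, 1.97 and 1.59 and Il17a at 3.65. Il17a had a mean of 3.34 CPM in oxPAPC and 0.267 CPM in Control libraries, and Il10 had 2.43 and 0.598 CPM. Without Control replicate 2 the count of the list was 5. With the filter at a mean of 5 CPM, which takes out Il10 and Il17a, it was also 5.

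Of 27 tested genes listed as ISRE genes of type I interferon, 22 rose and none fell (median 1.72). Which interferon, if any, changed these genes was not tested. Parp14 had a mean of 73.3 CPM in oxPAPC and 22.3 CPM in Control libraries, and Trim30a had 74.6 CPM in oxPAPC and 20.3 CPM in Control libraries. Isg15, a ubiquitin-like protein, had 9.45 CPM in oxPAPC and 0.393 CPM in Control libraries, and Xaf1 had 12.1 CPM in oxPAPC and 0.825 CPM in Control libraries. When genes under a mean of 5 CPM were removed, which takes out many of these, 12 rose. Of 26 tested IRF1 targets 12 rose and 1 fell (median 0.58). Irgm1, an interferon-inducible GTPase, and Gbp2, a guanylate-binding protein, had log2 fold changes of 2.08 and 1.89. Psmb9, an immunoproteasome subunit, and Cd274, which encodes PD-L1, each had 0.92. With library size scaling none of the list fell. Of 10 NF-kB subunit and inhibitor genes 2 rose, Nfkbib and Nfkbie (log2 fold changes 0.74 and 0.62). The count was 1 without oxPAPC replicate 1 or Control replicate 3 or 4 and 0 without oxPAPC replicate 3 or Control replicate 1, and 0 with the replicate block.

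**Figure D5:**
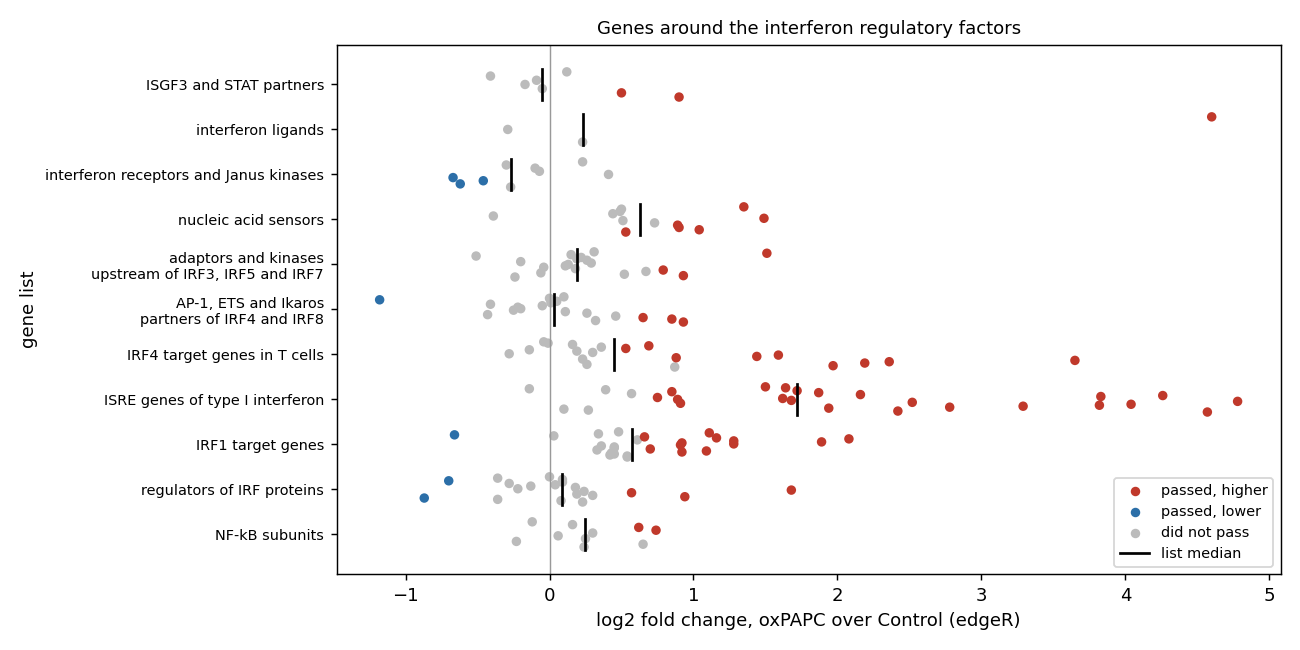
Log2 fold change of oxPAPC over Control by edgeR for every tested gene of the 11 lists, 1 point a gene, coloured by call, with a black bar at the median of each list. The ISRE genes have the highest median, 1.72, and the receptor list the lowest, -0.27.

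Irf5 and Irf8 are also made by B cells, dendritic cells and macrophages, so markers of these cells were read beside them. Marker counts are again set beside the 6.75% of all tested genes that were higher and the 6.52% that were lower. Of 13 tested B lineage markers 5 were higher and 1 was lower, and their summed level was 88.6 to 133 CPM in oxPAPC and 93.6 to 117 CPM in Control libraries. Pax5, a B lineage factor, had a mean of 3.26 CPM in oxPAPC and 0.714 CPM in Control libraries, while Cd79a had 4.23 CPM in oxPAPC and 4.03 CPM in Control libraries. The call of Ms4a1, another of the 5, was lost without oxPAPC replicate 1 (adjusted p = 0.0503) and without Control replicate 2 (0.0519). Of 5 tested macrophage and monocyte markers only Mpeg1 was higher, with 4.02 CPM in oxPAPC and 0.203 CPM in Control libraries, and the list summed to 8.52 to 11.3 CPM in oxPAPC and 4.15 to 5.11 CPM in Control libraries. Of 4 tested conventional dendritic cell markers only Flt3 was higher, with 1.06 CPM in oxPAPC and 0.184 CPM in Control libraries, and the list summed to 24.7 to 29.6 CPM in oxPAPC and 17.4 to 26.3 CPM in Control libraries. Of 4 tested plasmacytoid dendritic cell markers only Bst2, itself an interferon-inducible gene, was higher. The list summed to 119 to 158 CPM in oxPAPC and 76.5 to 107 CPM in Control libraries. Most of that sum was Bst2 and Lag3, and Lag3 is also listed here as an IRF4 target in T cells. Bst2 had means of 70.9 CPM in oxPAPC and 38.3 CPM in Control libraries, and Lag3 had 51.3 and 46.1 CPM. Lag3, Tcf4 and Ccr9 did not pass, with log2 fold changes of 0.16, 0.47 and -0.80. No tested natural killer marker of 2 passed, and of the CD8 markers Cd8a was higher and Cd8b1 did not pass. The defining myeloid and dendritic markers Itgam, Cd14, Clec9a and Siglech were not among the genes of the count table. Genes in that table reach 5 counts in 2 or more libraries. Of 10 T cell markers only Cd28 changed, with a log2 fold change of -0.85, and the list summed to 2430.3 to 3254 CPM in oxPAPC and 2599 to 2883 CPM in Control libraries. The part of other cell types in the levels of Irf5 and Irf8 was not tested.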

How the data were processed

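Per the labels' protocols, total RNA from an RNeasy kit went into poly(A)-selected libraries. Versions in the submitters' processing notes are GRCm38.p6 (build), STAR 2.7.8a, featureCounts 2.0.2 and DESeq2 1.30.1. The authors deposited raw counts per gene and library as whole numbers, per the file headers. The authors also deposited a mean signal per gene, which is counts divided by size factors. The authors' deposited table further gives log2 fold changes with their standard errors, and linear fold changes of oxPAPC over Control. A test score (the log2 fold change over its standard error) and p-values before and after adjustment were deposited by the authors too. Every listed gene reaches 5 counts in 2 or more libraries. Of the gene identifiers, 99.1% have the coordinates of GENCODE M21, whose exons gave lengths, the 8 genes included.

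Counts were scaled by TMM and filtered with filterByExpr, which left 16434 genes. They were tested in R 4.3.3 with edgeR 4.0.16 (quasi-likelihood) at a Benjamini-Hochberg threshold of 0.05. The SE of a fold change is its log2 value over the root of its F statistic. Correlations used log2 CPM with a prior count of 2. The members and gene lists were chosen with earlier results of these data known. The text names the 8 genes, up to 4 genes of each list with the smallest adjusted p, the 3 genes most like each changed member, overlapping genes, and changed markers. Other genes were chosen after their values were seen. Alternatives were RLE and library size scaling, no filter, a mean of 5 CPM, DESeq2 1.42.0, limma 3.58.1 (voom), a replicate block and leaving out each library. A planned comparison of protein sequences was not run. A few genes that these naming rules cover are not reported here.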

Additional observations from a re-analysis of the deposited data

Results flagged for a closer look

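In 130 groups of 4 values, a single library far from the 3 others was sought, where chance gives about 6, and 5 were found. The ratio of Irf1 to Irf2 was 5.88 in oxPAPC replicate 2, against 5.41 to 5.44 in the other oxPAPC libraries. Cd274 had 35.8 CPM in oxPAPC replicate 4, against 28.4 to 29.3 CPM in the others. Flt3 had 1.39 CPM in oxPAPC replicate 2, against 0.913 to 0.971 CPM. Eif2ak2 had 20.6 CPM in Control replicate 3, against 13.7 to 14.6 CPM, and Nfkbia had 318 CPM in Control replicate 4, against 259.8 to 266 CPM. No library of any of the 8 genes was far from its group in CPM by this measure.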

How the results depend on the processing

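Irf1, Irf4, Irf7 and Irf9 kept their direction and passed under all 15 alternatives run, with log2 fold changes of 0.90 to 1.09, 1.29 to 1.57, 2.30 to 2.53 and 0.57 to 0.77. Irf3 passed under none of them (0.24 to 0.50). Irf2 had -0.41 with library size scaling (edgeR adjusted p = 0.245) and -0.58 to -0.43 with a library left out. Irf5 had 0.67 with library size scaling, 0.54 without a filter, 0.52 with limma-voom, 0.52 with the replicate block and 0.39 to 0.64 with a library left out. Irf8 passed with the 5 CPM filter (0.51) and with DESeq2 (0.54). Library size scaling, which moved the median of all genes to 0.12, called 458 lower genes, against 1072, and 2 lower list genes, against 7. The replicate block called 708 lower and 745 higher genes. Pairing by replicate number was not assumed, since deviations from group means correlated at 0.32, -0.053, -0.37 and -0.035 between libraries of equal number, and the best match of a library had its own number for 2 of 8. With a library left out, 710 to 1057 genes were higher and 680 to 1144 lower, and 4 to 7 list genes were lower. The lowest counts came without Control replicate 2, and 694 genes were lower without oxPAPC replicate 4. With the longest coding transcript as length, chosen after seeing the data, the ratio of Irf1 to Irf2 was 3.48 in oxPAPC and 1.25 in Control libraries, and that of Irf4 to Irf8 was 0.539 in oxPAPC and 0.289 in Control libraries. Genes that did not pass turned direction with a library left out, Ifnk over -0.09 to 0.50 and Stat4 over -0.29 to 0.13. Of 54 other named genes, 39 kept direction and call under every alternative that tested them. For all of these the cause was not tested. Irf7 had as few as 49 counts in a library, and 4 libraries a group limit what small changes can pass.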
